A study of Mus musculus with 6 samples.

Results

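The genes described here encode the acid-generating proton pump and the digestive enzymes of the lysosome. They are 37 of the 24445 genes in the count table. They were taken from a fixed list of symbols, which was chosen with earlier results of these data known. Of the 37, 6 encode subunits of the membrane V0 sector of the pump, 8 encode subunits of its cytosolic V1 sector and 2 encode accessory proteins of the pump. A further 9 encode lysosomal proteases, 9 encode other lysosomal hydrolases or their activators, and 3 encode lysosomal membrane proteins. All 37 were found in the table and all 37 passed the filter on low counts. RNA-seq was performed on bone marrow-derived macrophages (BMDMs), macrophages grown from mouse bone marrow with L929-conditioned medium over 7 days. Every library came from cells treated for 24 h with 100 U/mL IL-4, a cytokine that drives alternative macrophage activation, and the mice are described as female, with their age not given in the sources used here. The control group (Ctrl, 3 libraries) carried Acly alleles with loxP sites around exon 9 (Acly fl/fl) and no Cre. The study's methods name the strain C57Bl/6J for mice with these alleles, which were crossed with Lyz2-Cre mice. The AclyM-KO group (3 libraries) carried the same alleles with Cre under Lyz2 control, which deletes the exon in myeloid cells and leaves cells of other types intact, so the comparison asks how deletion of Acly, the gene of the enzyme that makes cytosolic acetyl-CoA from citrate, by Lyz2-driven Cre altered these genes under IL-4.

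A lysosome works only when its lumen is acid. The vacuolar ATPase (V-ATPase) provides this by hydrolysing ATP in its cytosolic V1 sector and turning a ring in its membrane V0 sector that carries protons inward, and the low pH then matures and activates cathepsins and glycosidases. Macrophages are rich in lysosomes because they degrade what they engulf. Many lysosomal genes share an E-box-type promoter motif, named CLEAR, that is bound by TFEB and related transcription factors.

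Since the members are known for this motif, the 300 bases from 250 before to 50 after the start site were searched on both strands in the RefSeq promoter table (GRCm38.p6), which held 29 of the 37 members. The 7 letters TCACGTG were found in 12 of the 29 (41.4%), compared with 4.29% of the 27025 genes with an entry, 7.185% of the entries of tested genes, and 16.7% of the entries of the other lysosome genes listed for comparison (19 of 114). One match per gene is shown, read on the strand of the gene (given with its position), with the motif in capitals and 10 flanking bases on each side, so that the shared core can be seen beside its differing neighbours. Where the match runs on to the 8 letters TCACGTGA, all 8 are in capitals.
Atp6v0b, chr4:117887332-117887358, minus strand: ggtcggcgcaTCACGTGcgccggtcag
Atp6v0d1, chr8:105566051-105566078, minus strand: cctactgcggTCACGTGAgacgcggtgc
Atp6v0e, chr17:26676388-26676415, plus strand: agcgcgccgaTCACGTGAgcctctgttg
Atp6v1a, chr16:44139374-44139401, minus strand: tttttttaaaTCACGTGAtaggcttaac
Ctsa, chr2:164833767-164833794, plus strand: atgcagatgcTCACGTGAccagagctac
Ctsd, chr7:142387909-142387936, minus strand: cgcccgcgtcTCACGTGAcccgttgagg
Lgmn, chr12:102439126-102439152, minus strand: ggaatgtctgTCACGTGgtccatttta
Gla, chrX:134601183-134601210, minus strand: gagatctcggTCACGTGAgcaactctcg
Glb1, chr9:114401019-114401045, plus strand: tgcttctgagTCACGTGgcctacagag
Gaa, chr11:119267812-119267838, plus strand: ttctgtgcgaTCACGTGtttgactctg
Lamp1, chr8:13159135-13159161, plus strand: cgtgaccacaTCACGTGcggaacggag
Mcoln1, chr8:3500463-3500490, plus strand: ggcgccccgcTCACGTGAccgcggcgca

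The 7 letters were thus present in every class that the table covered apart from the accessory proteins. The 12 genes held 20 matches, 12 of them within 60 bases of the start site, 6 genes held at least 2 and Lamp1 held 4. The 8-letter form TCACGTGA, which contains the shorter one, was in 7 of 29 members (24.1%) and in 2.305% of the entries of tested genes, and the nested 6-letter core CACGTG was in 13 (44.8%) and 12.076%. A palindromic form of 10 letters, which contains the 8-letter one, was also searched and was in 0 of 29 members. It was in 0.851% of the entries of tested genes and in 2 of 114 other lysosome genes (1.754%). It is so rare that its absence from 29 entries decides little. All these results are matches of letters, and occupancy was not measured.

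Most V0 genes were higher in AclyM-KO BMDMs (4 of 6), the proteases split into 4 higher and 3 lower of 9, and of the other hydrolases only Gla passed the test. Of the 37 members, 12 were higher and 4 lower in AclyM-KO at an adjusted p-value under 0.05 (edgeR's quasi-likelihood test, Benjamini-Hochberg adjustment over the 12023 genes tested), and 21 did not pass. The background was high: 24.9% of all genes tested passed, 12.4% higher and 12.6% lower, and among the 3306 genes with at least the mean expression of the lowest member 35.7% passed. The differences were small, with an absolute log2 fold change under 0.2 for 30 members and a median of 0.12, against 0.15 over all genes tested and 0.11 over the 3306 genes of at least that mean expression. Signed, the median was 0.07 for the members and 0.0014 for all genes tested. The only member beyond the study's fold limit (0.58 on the log2 scale, 1.495-fold) with an adjusted p-value under 0.05 was Ctsh, which was lower. By the same rule 5.55% of all genes tested were past the limit, 2.57% lower and 2.98% higher, and 0 members were higher. For 35 members the 95% interval of the log2 fold change lay within the limit, the exceptions being Ctsh and Atp6v0a1. The numbers of members that passed depended on single libraries, and without AclyM-KO replicate 1 only 7 were higher and 3 lower.

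**Figure D1:**
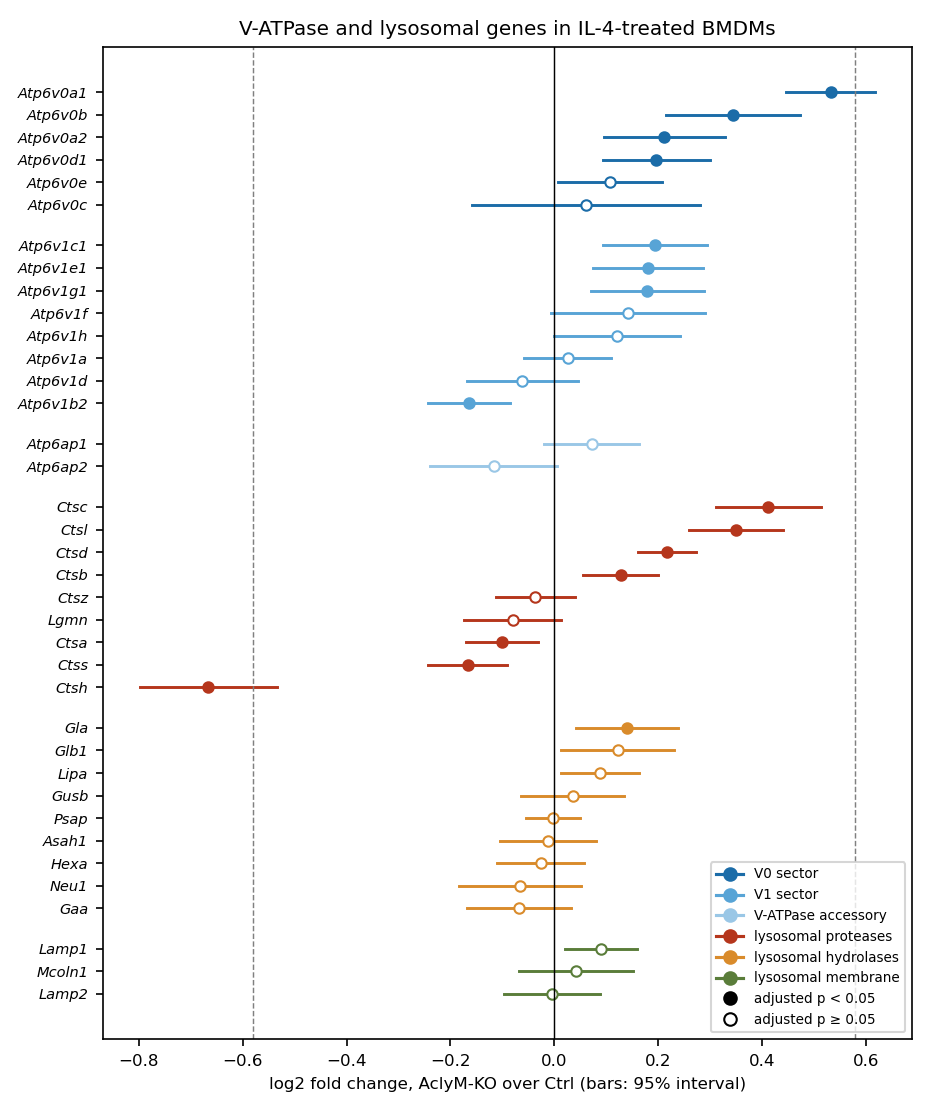
Log2 fold change of each of the 37 members (x axis, AclyM-KO over Ctrl) with its 95% interval, grouped by class and ordered within it; filled points have an edgeR adjusted p-value under 0.05 and dashed lines mark the fold limit. The 6 V0 genes lie to the right of 0, the proteases run from Ctsh on the far left to Ctsc at 0.41, and the hydrolases gather around 0.

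Deletion of Acly was visible in the libraries, with 334.3 ± 14.4 CPM (CPM, counts scaled to the TMM-adjusted library size; mean ± SD, n = 3) in Ctrl and 138.4 ± 6.63 CPM (n = 3) in AclyM-KO, a log2 fold change of -1.27 (edgeR adjusted p = 5.22e-10). Lyz2, the lysozyme gene under whose control Cre is expressed, was also lower, at 6595 ± 515 CPM in Ctrl and 4142 ± 120 CPM in AclyM-KO (log2 fold change -0.67, edgeR adjusted p = 5.79e-08). As only AclyM-KO cells carry Cre, its presence and the loss of Acly cannot be told apart in this comparison. Depth was 12151975 to 15587283 counts per library. The members took 9.33% to 10.02% of the counts in Ctrl and 10.2% to 10.4% in AclyM-KO. Ctrl replicate 2 stood apart, with a median deviation of the members from their mean over all libraries of -0.09 on the log2 scale against -0.015 to 0.06 in the other libraries. Summed macrophage markers were 7274 to 7590 CPM in Ctrl and 6973 to 7339 CPM in AclyM-KO, with 1 of 7 higher and 3 lower. Summed neutrophil markers were 33.3 to 35.9 CPM in Ctrl and 63.8 to 68.1 CPM in AclyM-KO, where 3 of 10 (S100a8, S100a9 and Mmp8) were higher and 5 (Ly6g, Camp, Retnlg, Mpo and Elane) did not pass the filter on low counts. Dendritic cell markers summed to at most 5.08 CPM, lymphocyte and NK markers to at most 0.772 CPM, and the 5 erythroid markers had 0 counts. Stromal and endothelial markers summed to 15.4 to 17.8 CPM in Ctrl and 9.55 to 11.4 CPM in AclyM-KO, where Pecam1 was lower. The part of other cells in the results below was not tested, and in bulk RNA fewer cells of a type and less RNA per cell cannot be told apart.

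To compare genes with each other, CPM was divided by transcript length in kilobases. The most abundant member in Ctrl was Psap, which encodes the precursor of the saposins that present lipids to hydrolases, at 10080 ± 284 CPM per kilobase (SD, n = 3). It was followed by the aspartic protease gene Ctsd at 7480 ± 278 CPM per kilobase and the cysteine protease gene Ctsb at 4565 ± 286 CPM per kilobase. Ctss, Ctsl and Lamp1 came next with 2256 ± 91.9, 1889 ± 123 and 1786 ± 69.7 CPM per kilobase. Ctsl and Lamp1 lay within their spread of each other, whereas the steps above them were larger than the SDs. In AclyM-KO the order of Ctss and Ctsl was turned round, with 2010 ± 49.6 CPM per kilobase for Ctss and 2408 ± 93.6 CPM per kilobase for Ctsl. At the other end of the range were the calcium channel gene Mcoln1, at 34.3 ± 0.863 CPM per kilobase in Ctrl, and the V0 gene Atp6v0a2, at 12.03 ± 0.612 CPM per kilobase. Genes whose products sit in one complex were not equally abundant, since in the V1 sector the Ctrl level ran from 46.5 CPM per kilobase for Atp6v1d to 586.3 CPM per kilobase for Atp6v1b2.

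**Figure D2:**
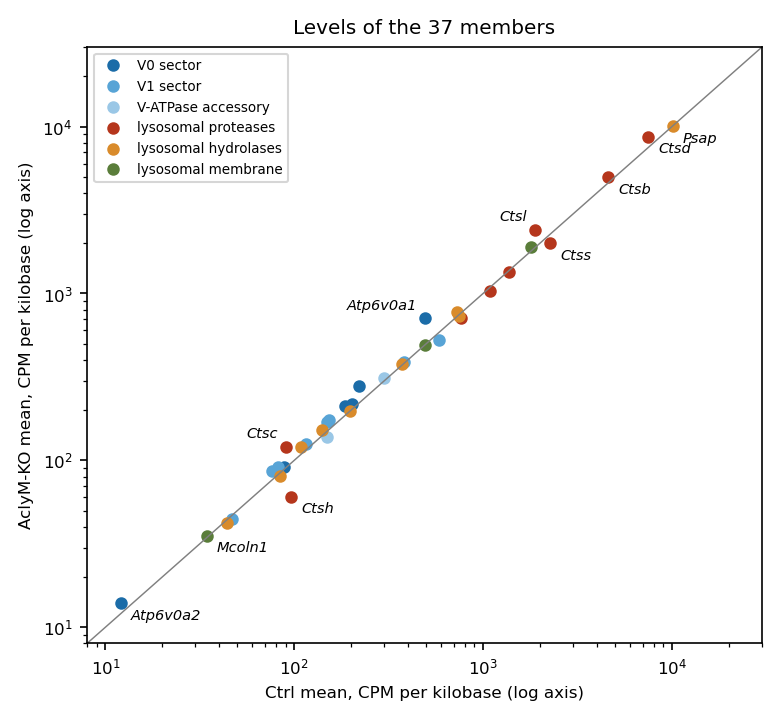
Mean CPM per kilobase of each member in Ctrl (x axis) and AclyM-KO (y axis), both on log axes, coloured by class; the line marks equal levels. The levels run from 12.03 CPM per kilobase for Atp6v0a2 to 10080 CPM per kilobase for Psap in Ctrl, and Atp6v0a1 and Ctsc above the line and Ctsh below it are the points farthest from it.

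In the membrane sector all 6 log2 fold changes were above 0 and 4 of the 6 genes rose in AclyM-KO, where 12.4% of all genes tested did. The median log2 fold change of the 6 was 0.20. Of them, 5 had no overlap between the groups, where 40.2% of all genes tested had none. The V0 genes together took 0.275% to 0.295% of the counts in Ctrl and 0.382% to 0.384% in AclyM-KO. Most of these counts came from a single gene, Atp6v0a1.

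Atp6v0a1 encodes an a subunit, the large membrane protein that forms the proton path beside the ring and directs the pump to its compartment. It lies on chromosome 11 from 101009422 to 101063719 (GRCm38). Its expression was 1860, 2097 and 1982 CPM in the Ctrl libraries and 2898, 2837 and 2855 CPM in the AclyM-KO libraries. The lowest AclyM-KO value was above the highest Ctrl value by far more than the range within either group. The log2 fold change was 0.53 (95% interval 0.45 to 0.62, edgeR adjusted p = 2.4e-07, standard error 0.0403), which placed it at rank 41 of all genes tested by p-value. Removing any 1 library gave values of 0.49 to 0.57. The counts on its 4 RefSeq transcripts were identical, so its isoforms cannot be told apart here. The 250 bases before the start listed for it in the RefSeq promoter table, shown because this gene had the lowest p-value of all members, contain no CACGTG and have a GC content of 43.6%. That start lies inside the gene, after its first annotated start, and the window overlaps no exon of GENCODE M21.
Atp6v0a1, chr11:101010148-101010397, plus strand: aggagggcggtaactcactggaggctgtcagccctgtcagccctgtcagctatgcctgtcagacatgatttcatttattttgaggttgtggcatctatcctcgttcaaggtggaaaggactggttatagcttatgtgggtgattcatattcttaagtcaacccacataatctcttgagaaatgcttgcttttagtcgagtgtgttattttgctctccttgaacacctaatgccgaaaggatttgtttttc

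The other a subunit among the members, Atp6v0a2, was at 66.3, 60.5 and 66.0 CPM in Ctrl and 75.6, 72.3 and 75.8 CPM in AclyM-KO. All AclyM-KO values were above the Ctrl values, with a log2 fold change of 0.21 (edgeR adjusted p = 0.0104). The call was lost without AclyM-KO replicate 1, where the edgeR adjusted p was 0.051. Opposite-strand exons cover 9.86% of the exonic bases of Atp6v0a2. Atp6v0b encodes the c″ proteolipid of the ring and was at 227.8, 197.7 and 236.4 CPM in Ctrl and 274.0, 279.2 and 287.1 CPM in AclyM-KO. The groups did not overlap, although Ctrl replicate 2 was lower than its fellows, and the log2 fold change was 0.34 (edgeR adjusted p = 0.000684, standard error 0.0605). An exon of a gene model on the opposite strand covers 11.85% of the exonic bases of Atp6v0b, and the counts show no sign that strands were separated, since the antisense pair Xist and Tsix had identical counts in 5 of 6 libraries.

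Atp6v0d1 encodes the d subunit, which couples the ring to the central stalk. It was at 307.8, 285.2 and 315.3 CPM in Ctrl and 345.9, 348.1 and 347.1 CPM in AclyM-KO, so that the AclyM-KO libraries lay within 3 CPM of each other and above every Ctrl library. The log2 fold change was 0.20 (edgeR adjusted p = 0.00793, standard error 0.0486). The remaining V0 genes did not pass. Atp6v0e, the small e subunit gene, had a log2 fold change of 0.11 with no overlap between the groups (edgeR adjusted p = 0.11). Atp6v0c, the gene of the main ring proteolipid, had 102.7, 126.9 and 82.3 CPM in Ctrl and 103.4 to 110.9 CPM in AclyM-KO. Its Ctrl libraries thus spanned the AclyM-KO values on both sides, and its log2 fold change was 0.06 (edgeR adjusted p = 0.712), 0.22 without Ctrl replicate 2 (edgeR adjusted p = 0.0229) and -0.09 without Ctrl replicate 3. Its value is therefore uncertain. Reads of its processed pseudogenes could also be split from or added to its counts, which was not tested.

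Members and non-members of the a and d subunit families moved in opposite directions. The non-members were named because they had the lowest p-values of the other pump genes listed. Tcirg1, which encodes the a3 subunit typical of osteoclasts and macrophages, was at 654.4, 662.8 and 699.1 CPM in Ctrl and 553.2, 588.9 and 568.0 CPM in AclyM-KO, a log2 fold change of -0.24 (edgeR adjusted p = 0.00108). Atp6v0d2, the gene of the d subunit isoform of the same cells, was at 1912, 2001 and 1905 CPM in Ctrl and 1695, 1728 and 1682 CPM in AclyM-KO, a log2 fold change of -0.19 (edgeR adjusted p = 0.00107). For neither gene did the groups overlap. Counted per kilobase, Atp6v0a1 made up 64.5% to 67.0% of the 3 a subunit genes shown in Ctrl and 75.3% to 76.7% in AclyM-KO, while Tcirg1 made up 31.6% to 33.9% and 21.8% to 23.3%. The ratio of Atp6v0a1 to Tcirg1 was 1.91, 2.12 and 1.90 in Ctrl and 3.51, 3.23 and 3.37 in AclyM-KO. Atp6v0d2 remained the main d subunit gene, with 79.5% to 81.8% in Ctrl and 75.7% to 76.1% in AclyM-KO, and its ratio to Atp6v0d1 was 3.99, 4.50 and 3.88 in Ctrl and 3.14, 3.19 and 3.11 in AclyM-KO. These ratios were formed after the values of the single genes were seen and are given as a description.

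**Figure D3:**
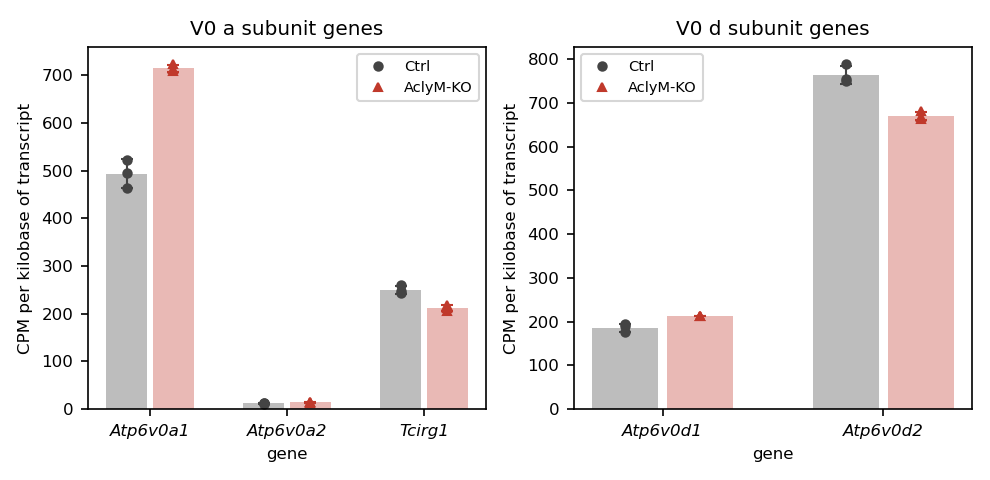
CPM per kilobase of transcript of the a subunit genes (left) and d subunit genes (right) of the V0 sector; bars are means of 3 libraries, error bars SD, points single libraries. Atp6v0a1 and Atp6v0d1 were higher in all 3 AclyM-KO libraries than in any Ctrl library, whereas Tcirg1 and Atp6v0d2 were lower.

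The catalytic V1 sector moved less. Of its 8 genes, 3 were higher and 1 was lower, where 12.4% and 12.6% of all genes tested were. Among genes with at least the mean expression of the lowest member 35.7% were called in either direction. In this sector 6 log2 fold changes were above 0, with a median of 0.13. This median was 0.05 without Ctrl replicate 2, and the V1 genes together took 0.414% to 0.449% of the counts in Ctrl and 0.417% to 0.429% in AclyM-KO, ranges that overlap. The ATP-hydrolysing core is made of A and B subunits. The A subunit gene Atp6v1a had a log2 fold change of 0.03 (edgeR adjusted p = 0.68) and overlapping groups. The B subunit gene Atp6v1b2 fell, with 1669, 1593 and 1707 CPM in Ctrl and 1493, 1446 and 1495 CPM in AclyM-KO. All AclyM-KO values were below all Ctrl values, at a log2 fold change of -0.16 (edgeR adjusted p = 0.0047, standard error 0.0375). This was the only pump subunit among the members that fell.

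The V1 genes that rose encode stalk subunits, which hold the core against the membrane sector. Atp6v1c1, for the C subunit, was at 321.9, 302.9 and 329.2 CPM in Ctrl and 368.1, 362.7 and 360.4 CPM in AclyM-KO, a log2 fold change of 0.19 (edgeR adjusted p = 0.00701). Atp6v1e1, for the E subunit, was at 196.7, 186.6 and 203.5 CPM in Ctrl and 225.7, 216.8 and 222.5 CPM in AclyM-KO, a log2 fold change of 0.18 (edgeR adjusted p = 0.0149). Atp6v1g1, for the G subunit that pairs with E, was at 91.1, 82.9 and 86.2 CPM in Ctrl and 97.6, 99.2 and 98.2 CPM in AclyM-KO, also a log2 fold change of 0.18 (edgeR adjusted p = 0.0179). In each of the 3 genes every AclyM-KO library was above every Ctrl library. Atp6v1c1 passed under every alternative run. The call of Atp6v1e1 was lost without AclyM-KO replicate 1 (edgeR adjusted p = 0.0674) and without AclyM-KO replicate 3 (0.056), and that of Atp6v1g1 was lost without Ctrl replicate 3 (0.054) and without AclyM-KO replicates 1, 2 or 3 (0.0543, 0.0781 and 0.0574). Of the remaining V1 genes, the regulatory H subunit gene Atp6v1h had a log2 fold change of 0.12 with no overlap between groups (edgeR adjusted p = 0.137). Atp6v1f, for the F subunit of the rotor, was at 0.14 (edgeR adjusted p = 0.152) and passed without Ctrl replicate 1 (edgeR adjusted p = 0.0435). Atp6v1d, for the D subunit of the rotor, was at -0.06 (edgeR adjusted p = 0.412).

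Neither accessory gene of the pump passed. Atp6ap2, which encodes the prorenin receptor, had the larger difference of the pair, with 347.1, 315.6 and 377.0 CPM in Ctrl and 325.3, 319.2 and 314.7 CPM in AclyM-KO. Ctrl replicate 2 lay among the AclyM-KO values and the other Ctrl libraries above them, so that the log2 fold change of -0.12 (edgeR adjusted p = 0.157) became -0.18 without that library (edgeR adjusted p = 0.00509). Atp6ap1, which encodes an assembly and trafficking subunit, had a log2 fold change of 0.07 (edgeR adjusted p = 0.239). Over all 16 genes of the pump among the members, 7 were higher, 1 was lower and 10 had no overlap between groups. Of all genes tested, 12.4% were higher, 12.6% lower and 40.2% without overlap. Among genes with at least the mean expression of the lowest member 35.7% were called, and their share without overlap was not computed.

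The lysosomal proteases were the most divided class, with 4 of 9 genes higher, 3 lower and 7 without overlap between groups. Over all genes tested these shares were 12.4%, 12.6% and 40.2%. Their median log2 fold change was -0.04, with a range from -0.67 to 0.41. Ctsd and Ctsb, the most abundant of the class, were among those that rose, and the class as a whole took 4.82% to 5.29% of the counts in Ctrl and 5.51% to 5.59% in AclyM-KO.

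Ctsh encodes cathepsin H, a cysteine protease that acts mainly as an aminopeptidase, and lies on chromosome 9 from 90054267 to 90076095 (GRCm38). It was at 168.0, 143.9 and 154.9 CPM in Ctrl and 91.7, 102.2 and 100.4 CPM in AclyM-KO. Every AclyM-KO library was thus far below the lowest Ctrl library. The log2 fold change was -0.67 (95% interval -0.80 to -0.53, edgeR adjusted p = 1.8e-06, standard error 0.0622), the largest of all 37 members in size. Its interval included the fold limit. Ctss, which encodes cathepsin S, the protease that trims the invariant chain of MHC class II, was at 3173, 2925 and 3074 CPM in Ctrl and 2714, 2662 and 2795 CPM in AclyM-KO. The groups did not overlap and the log2 fold change was -0.17 (edgeR adjusted p = 0.00317, standard error 0.0360). Ctsh has no entry in the promoter table. The 250 bases before the start site of Ctss, the lower member with the lowest p-value that has an entry, are shown beside the window of Atp6v0a1 above and likewise hold no CACGTG (GC content 44.8%).
Ctss, chr3:95526536-95526785, plus strand: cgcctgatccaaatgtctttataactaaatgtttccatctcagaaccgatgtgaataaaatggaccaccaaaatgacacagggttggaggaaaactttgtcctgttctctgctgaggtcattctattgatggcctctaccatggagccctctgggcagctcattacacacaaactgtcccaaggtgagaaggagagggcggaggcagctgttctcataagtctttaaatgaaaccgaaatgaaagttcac

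The third gene that fell was Ctsa, for the carboxypeptidase cathepsin A, which also protects neuraminidase 1 and beta-galactosidase from degradation. It was at 1958, 1932 and 1930 CPM in Ctrl and 1803, 1795 and 1830 CPM in AclyM-KO. The groups were apart but close, and the log2 fold change of -0.10 (edgeR adjusted p = 0.036) passed only narrowly. Among other alternatives, it did not pass under DESeq2 (adjusted p = 0.0577), nor without any single library other than Ctrl replicate 2, where the edgeR adjusted p was 0.0568 without Ctrl replicate 1, 0.0659 without Ctrl replicate 3, and 0.154, 0.145 and 0.0737 without AclyM-KO replicates 1, 2 and 3. Exons of genes on the opposite strand cover 17.37% of its exonic bases.

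Among the proteases that rose, Ctsc had the largest log2 fold change. It encodes cathepsin C (dipeptidyl peptidase I), which activates serine proteases of granulocytes and other leukocytes. Its expression was 234.0, 223.5 and 219.9 CPM in Ctrl and 292.9, 302.5 and 306.0 CPM in AclyM-KO, with the groups well apart. The log2 fold change was 0.41 (95% interval 0.31 to 0.51, edgeR adjusted p = 1.6e-05, standard error 0.0476). The summed neutrophil markers given above were also higher, with Mmp8 at a mean of 16.9 CPM in Ctrl and 40.1 CPM in AclyM-KO. Ngp and Ltf were not called, and Ly6g, Camp, Retnlg, Mpo and Elane were below the filter on low counts. A link of these markers to Ctsc was not tested. Ctsl, for the endopeptidase cathepsin L, was at 3883, 3444 and 3842 CPM in Ctrl and 4939, 4726 and 4571 CPM in AclyM-KO. All 3 AclyM-KO libraries were above all Ctrl libraries, and the log2 fold change was 0.35 (edgeR adjusted p = 2.65e-05, standard error 0.0426). An antisense gene model covers 26.85% of the exonic bases of Ctsl, the highest share among the members. Ctsl and Ctss encode related endopeptidases, and per kilobase their ratio was 0.841, 0.809 and 0.859 in Ctrl and 1.25, 1.22 and 1.12 in AclyM-KO.

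Ctsd, for cathepsin D, the main aspartic protease of lysosomes, was at 16388, 15250 and 16092 CPM in Ctrl and 18516, 18302 and 18691 CPM in AclyM-KO. Every AclyM-KO library was higher than any Ctrl library, by more than the range within either group. This was a log2 fold change of 0.22 (edgeR adjusted p = 2.58e-05, standard error 0.0264). Ctsb, for cathepsin B, was at 22484, 20089 and 22383 CPM in Ctrl and 23478, 23424 and 24076 CPM in AclyM-KO. Here the low value of Ctrl replicate 2 widened the Ctrl range, while the other Ctrl libraries came close to AclyM-KO. The log2 fold change was 0.13 (edgeR adjusted p = 0.012), and it was 0.07 without Ctrl replicate 2, where the call was kept. The call was lost under DESeq2 (adjusted p = 0.0588), without AclyM-KO replicate 1 (edgeR adjusted p = 0.0571) and without AclyM-KO replicate 3 (0.0592). Exons of Fdft1 on the opposite strand cover 12.79% of the exonic bases of Ctsb. Ctsz, for the carboxypeptidase cathepsin Z, and Lgmn, for the asparaginyl endopeptidase legumain, did not pass, with log2 fold changes of -0.04 (edgeR adjusted p = 0.502) and -0.08 (edgeR adjusted p = 0.198). Without Ctrl replicate 2 the value of Lgmn was -0.14 (edgeR adjusted p = 0.000775).

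**Figure D4:**
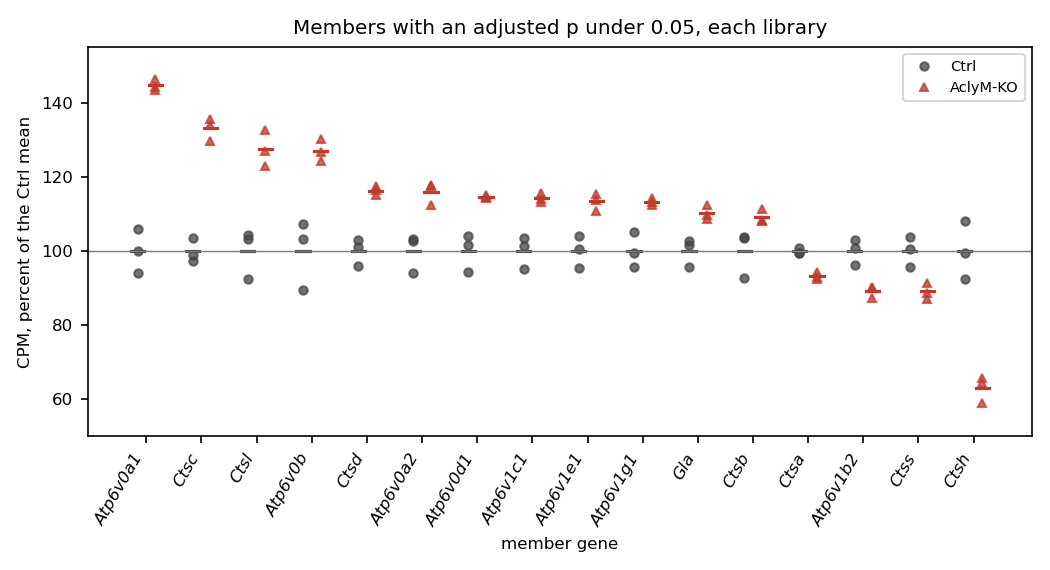
CPM of the 16 members with an edgeR adjusted p-value under 0.05 in each library (circles Ctrl, triangles AclyM-KO), as percent of the Ctrl mean of the gene; short lines are group means and the y axis does not start at 0. No gene has overlapping groups, Atp6v0a1 is highest and Ctsh lowest, and the Ctrl circles spread more widely than the triangles in most genes.

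The other lysosomal hydrolases differed little. Of 9 genes, 1 was higher and 0 were lower, where 12.4% and 12.6% of all genes tested were. Their log2 fold changes ran from -0.07 to 0.14 with a median of -0.0022. They took 3.21% to 3.38% of the counts in Ctrl and 3.22% to 3.34% in AclyM-KO. The gene that rose was Gla, for alpha-galactosidase A, the enzyme deficient in Fabry disease. It was at 355.4, 331.7 and 351.9 CPM in Ctrl and 389.3, 379.8 and 376.1 CPM in AclyM-KO, without overlap. Its log2 fold change was 0.14 (edgeR adjusted p = 0.0369). Among other alternatives, the call was lost with library totals in place of TMM (edgeR adjusted p = 0.0659) and without every single library other than Ctrl replicate 1, at edgeR adjusted p-values of 0.0713 and 0.0636 without Ctrl replicates 2 and 3 and 0.141, 0.106 and 0.0775 without AclyM-KO replicates 1, 2 and 3.

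Glb1, for the beta-galactosidase used as a senescence stain, and Lipa, for the acid lipase that frees cholesterol and fatty acids from lipoprotein lipids, had no overlap between groups but did not pass. Their log2 fold changes were 0.12 (edgeR adjusted p = 0.0955) and 0.09 (edgeR adjusted p = 0.0812). Glb1 passed without Ctrl replicate 1 (edgeR adjusted p = 0.0474) and Lipa without Ctrl replicate 3 (edgeR adjusted p = 0.0497). The other 6 had overlapping groups. Gusb (beta-glucuronidase) was at 0.04, Asah1 (acid ceramidase) at -0.01, Hexa (the alpha subunit of beta-hexosaminidase) at -0.03, Neu1 (neuraminidase 1) at -0.07 and Gaa (the acid glucosidase that degrades glycogen) at -0.07 on the log2 scale, with edgeR adjusted p-values of 0.327 to 0.869. For Psap the interval was narrow. It was at 27375, 25883 and 26791 CPM in Ctrl and 26071, 26583 and 27272 CPM in AclyM-KO, and the 95% interval of its log2 fold change ran from -0.05 to 0.05.

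None of the 3 membrane genes passed. Lamp1, which encodes the abundant glycoprotein that lines the lysosome, came closest. It was at 4138, 3827 and 3978 CPM in Ctrl and 4185, 4211 and 4317 CPM in AclyM-KO. The lowest AclyM-KO value exceeded the highest Ctrl value only slightly, and the log2 fold change was 0.09 (edgeR adjusted p = 0.0575). It passed with upper-quartile factors (edgeR adjusted p = 0.0384), without a filter on low counts (0.0352), without Ctrl replicate 1 (0.0123) and without Ctrl replicate 2 (0.0481). Lamp2, whose product also serves in chaperone-mediated autophagy, had a log2 fold change of -0.0041 (edgeR adjusted p = 0.958) and Mcoln1, for the calcium channel TRPML1, one of 0.04 (edgeR adjusted p = 0.601).

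Promoters with and without the motif held members of every outcome. Of the 29 members with an entry, 8 were higher, 2 were lower and 19 did not pass, beside 12.4% higher and 12.6% lower of all genes tested. Of the 12 members with TCACGTG, 4 were higher (Atp6v0b, Atp6v0d1, Ctsd and Gla), 1 was lower (Ctsa) and 7 did not pass. Their median log2 fold change was 0.10, and that of the members with an entry but no match was 0.04. Atp6v0a1, Ctsc and Ctsl, 3 of the 4 largest increases, had no TCACGTG in the window of the table, although Ctsl had the shorter CACGTG. The window of Atp6v0a1 lies inside the gene, after its first annotated start. No test of the motif against the outcome was made.

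The other genes of the lysosome were taken from 6 lists of 142 genes in all, of which 133 passed the filter on low counts. Of these, 25 were higher and 33 lower in AclyM-KO, with a median log2 fold change of -0.02. The background is the share given above, 12.4% higher and 12.6% lower. Among the other pump subunits and assembly factors 5 of 11 tested were lower and 2 higher (median -0.14). Among all 16 pump members, accessory genes included, 7 were higher and 1 was lower. These sets are not alike, since the first mixes subunits with assembly factors. Among the other proteases and their cystatin inhibitors, 5 of 13 were lower and 5 higher. The osteoclast collagenase gene Ctsk rose from 16.7, 15.9 and 14.4 CPM to 32.7, 34.3 and 29.8 CPM (log2 fold change 1.04, edgeR adjusted p = 6.7e-07). Ctsf, for cathepsin F, fell from 15.9, 15.0 and 18.8 CPM to 7.78, 8.81 and 10.1 CPM (log2 fold change -0.90, edgeR adjusted p = 9.59e-05). Cstb, for the cathepsin inhibitor cystatin B, had a log2 fold change of 0.33 (edgeR adjusted p = 6.25e-05).

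The other hydrolases and their activators had a median of -0.06. Of these, 13 of 34 were lower and 3 higher, where 12.6% and 12.4% of all genes tested were. Those that rose included a pair of heparan sulfate-degrading enzymes, Hgsnat with a log2 fold change of 0.63 (edgeR adjusted p = 1.33e-06) and Sgsh with 0.56 (edgeR adjusted p = 3.12e-06), of which Sgsh is overlapped over 21.64% of its exonic length by an antisense gene. The tartrate-resistant acid phosphatase gene Acp5 fell from 12.2, 12.1 and 14.7 CPM to 7.91, 10.1 and 7.06 CPM (log2 fold change -0.63, edgeR adjusted p = 0.00433). Of the other membrane proteins, 4 of 32 were higher and 6 lower, among them the calcium channel gene Mcoln2 at 0.34 (edgeR adjusted p = 0.000328) and the arginine sensor gene Slc38a9 at -0.44 (edgeR adjusted p = 5.33e-05). Of the genes that sort enzymes to lysosomes, 3 of 18 were higher and 2 lower. These included the AP-1 adaptor genes Ap1m1 at 0.28 (edgeR adjusted p = 0.000679) and Ap1b1 at -0.26 (edgeR adjusted p = 0.000553).

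The list of transcription factors and nutrient sensors had a median of 0.13. Of all genes tested 12.4% were higher and 12.6% lower, and of those with at least the mean expression of the lowest member 35.7% were called. In this list 8 of 25 were higher and 2 lower. Those with the lowest p-values were Flcn, for the folliculin GTPase activator, which rose by 0.42 on the log2 scale (edgeR adjusted p = 7.28e-05), and Rragd, for a Rag GTPase of the nutrient-sensing complex, which had a log2 fold change of -0.32 (edgeR adjusted p = 0.000251). The 4 genes of the factor family that binds the CLEAR motif were looked at after their values were seen, and 3 of their 4 log2 fold changes were above 0. Tfeb was at 71.1, 71.0 and 71.8 CPM in Ctrl and 56.8, 62.0 and 63.9 CPM in AclyM-KO (log2 fold change -0.23, edgeR adjusted p = 0.00766). Mitf was at 144.3, 139.4 and 140.4 CPM in Ctrl and 162.6, 168.2 and 158.2 CPM in AclyM-KO (log2 fold change 0.21, edgeR adjusted p = 0.00585). Tfe3 had a log2 fold change of 0.14 without overlap between groups (edgeR adjusted p = 0.0514), and Tfec one of 0.10 with overlapping groups (edgeR adjusted p = 0.25).

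**Figure D5:**
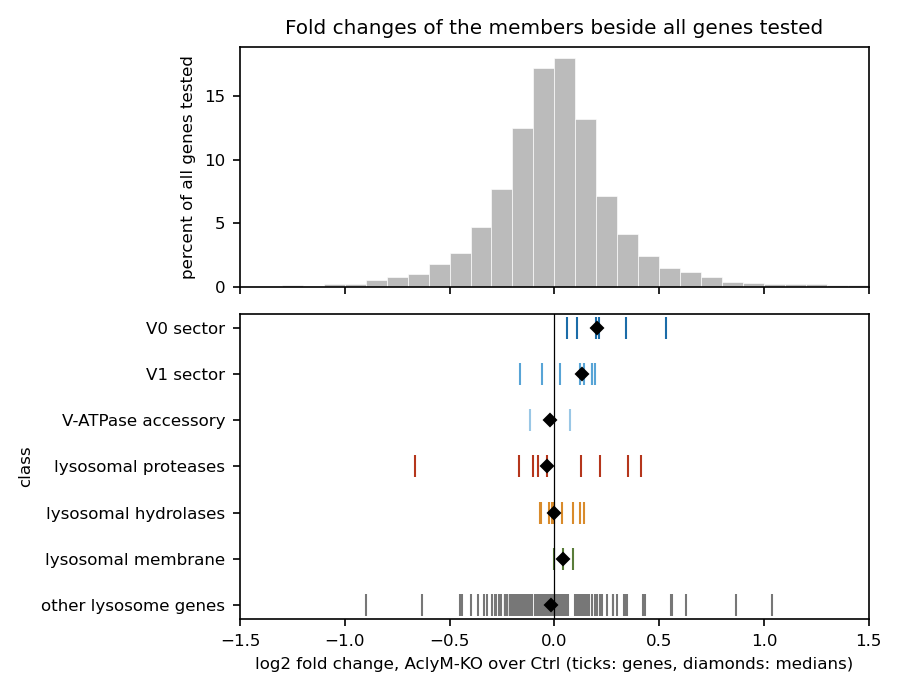
Top, distribution of log2 fold changes (AclyM-KO over Ctrl) over the 12023 genes tested, as percent of genes per bin of 0.1 on the log2 scale, within -1.5 to 1.5; bottom, each member by class and the 133 other lysosome genes tested (ticks), with class medians (diamonds). The V0 and V1 medians, 0.20 and 0.13, lie to the right of 0, the other classes lie near it, and no member reaches beyond 0.67 in size.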

How the data were processed

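Labels and methods of the study give KAPA stranded mRNA libraries and alignment to mm10 with STAR 2.5.2b, with CASAVA 1.8.2 also named. The counting program is not given in the sources used here. The authors deposited raw read counts per RefSeq transcript. Of 35745 rows, 35440 were paired with symbols by RefSeq (GRCm38.p6) and 188 by GENCODE M21, and 117, with 0.370% to 1.38% of counts, were left out. The row with the highest total was kept per gene, because reads were counted on each isoform. The study calls its replicates biological in one place and technical from pooled mice in another, so p-values measure the spread between libraries. In R 4.3.3, edgeR 4.0.16 tested these counts by its quasi-likelihood method (filterByExpr, TMM, glmQLFit and glmQLFTest with a genotype term), after checks on simulated data, with Benjamini-Hochberg adjustment over all genes tested. The alternatives used DESeq2 1.42.0, which was the tool of the study, limma-voom (limma 3.58.1), other scalings, filters and rows, glmTreat, a replicate term and removal of each library in turn. Libraries of 1 group were compared pairwise and differed beyond sampling (chi-square per gene 2.315 to 7.464), and all were kept as separate libraries. This check cannot tell libraries of separate mice from technical replicates of pooled mice. The members and lists were chosen with earlier results of these data known, so no test over a list is given. Library values are given for each member under the adjusted p threshold of 0.05 and, in classes without one, for the member with the largest difference. They are also given for Atp6v0c, whose Ctrl libraries spread widely, and for Psap, the most abundant member in Ctrl. Other lysosome genes are named when also past the fold limit, or with the 2 lowest p-values of their list. Naive macrophages were not analysed here.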

Additional observations from a re-analysis of the deposited data

How the results depend on the processing

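Under the 16 alternatives run for each gene, 10 of the 16 members called kept their call in every one, 7 of them higher (Atp6v0a1, Atp6v0b, Atp6v0d1, Atp6v1c1, Ctsc, Ctsd and Ctsl) and 3 lower (Atp6v1b2, Ctsh and Ctss). The other 6 lost it at least once and 7 uncalled members gained one. With each library left out in turn, 7 to 15 members were higher and 3 to 6 lower, 13 to 22 other lysosome genes were higher and 22 to 40 lower, and 1002 to 1512 of all genes were higher and 972 to 1548 lower. The lowest count of higher members, 7, came without AclyM-KO replicate 1. Tested against the fold limit itself with glmTreat, 0 members were lower, and 41 of all genes were lower and 77 higher. The V1 median was 0.0542 to 0.1614 with each library left out, and the accessory median rose to 0.0075 without Ctrl replicate 3. Of the members, only uncalled ones changed sign. With upper-quartile factors the log2 fold change was 0.0023 for Psap and 5e-04 for Lamp2. With single libraries left out, values crossed 0 for Atp6v0c (-0.0851 to 0.2205), Atp6v1a (-0.0132 to 0.0521), Gusb (-0.0154 to 0.0578), Psap (-0.0283 to 0.0142), Asah1 (-0.0444 to 0.0054) and Lamp2 (-0.0539 to 0.0249). The cause was not tested. DESeq2 gave 11 members higher and 3 lower. Same-numbered libraries did not deviate together (correlations -0.476, 0.067 and -0.249), and with the replicate number as a block 11 members were higher and 3 lower (Gla and Ctsa lost their calls, edgeR adjusted p = 0.0745 and 0.0776), 22 and 28 other lysosome genes, and 1315 and 1329 of all genes.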

Other observations

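Atp6v0a1 lies on the chromosome of the deleted gene, a feature looked at after its value was seen. On GRCm38 it starts 481422 bases past the end of Acly (chromosome 11, 100476352 to 100528000). Within 1000000 bases on either side of Acly, 40 genes other than Acly were tested. Of these, 10 were higher and 3 lower in AclyM-KO (edgeR adjusted p-value under 0.05), with a median log2 fold change of 0.13. This share of 32.5% stands beside 24.9% of all genes tested and 35.7% of those with at least the mean expression of the lowest member. Atp6v0a1, already known to have the lowest p-value of all members, had the lowest of the 40. A role of position was not tested. The 37 members are spread over 19 chromosomes.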
